A study of Mus musculus with 2 samples.

Results

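The miRNAs described here are known from neurons and glia: miR-137, miR-9, miR-128, miR-129 and miR-219. They were followed at 9 mouse genes picked by name (Mir137, Mir9-1, Mir9-2, Mir9-3, Mir128-1, Mir128-2, Mir129-2, Mir219a-1 and Mir219a-2), and 8 of these had a row among the 1973 gene rows of the tables. Mir9-1 had none. The RNA came from the hearts of healthy B6NCrl mouse embryos aged 13.5 days, with male and female embryos pooled and no allele, agent or treatment given. Short RNA below 30 nucleotides was sequenced in 2 libraries, which the labels call biological replicates 1 and 2 and tie to separate biosamples, so there is 1 group and no contrast of conditions.

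A miRNA is cut from a hairpin precursor into arms of about the length of a short RNA read, named 5p and 3p for the side of the hairpin. The seed of an arm, its bases 2 to 8, pairs with target messenger RNAs. In the nervous system, miR-9 acts in neural progenitors, miR-128 and miR-137 in the maturation of neurons and their synapses, miR-129 in the excitability of neurons, and miR-219 in the maturation of oligodendrocytes, the myelin-forming glia of the brain. The embryonic heart receives nerves and ganglion cells that derive largely from the neural crest, and the lung buds, foregut, liver and body wall lie close to it.

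Shared sequence can limit what a gene row counts, so the arms and hairpins come first. In RefSeq (build GRCm38.p6) all 9 genes had a hairpin, with 17 arms in all that reduce to 11 different mature sequences and 10 seeds. The seed is in capitals in each arm below.
miR-137-3p: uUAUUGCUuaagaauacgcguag
miR-137-5p: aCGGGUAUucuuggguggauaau
miR-128-3p: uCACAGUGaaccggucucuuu
miR-128-1-5p: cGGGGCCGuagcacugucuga
miR-128-2-5p: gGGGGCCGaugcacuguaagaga
miR-129-5p: cUUUUUGCggucugggcuugc
miR-129-2-3p: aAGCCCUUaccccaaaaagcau
miR-219a-5p: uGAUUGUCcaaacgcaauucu
miR-219a-1-3p: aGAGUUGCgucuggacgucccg
miR-9-5p: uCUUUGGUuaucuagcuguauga
miR-9-3p: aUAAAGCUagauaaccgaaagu
The 5p arms of Mir128-1 and Mir128-2 share a seed although the arms differ. No other mature entry of the 1738 in the RefSeq table had a seed of this group. Both arms of Mir137 belong to 1 locus, whereas miR-9-5p and miR-9-3p are each identical at 3 loci. The arms miR-128-3p, miR-129-5p and miR-219a-5p are each identical at 2 loci.

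The hairpins of the copied genes show how far the identity runs past the arm. Capitals mark bases inside a run of 20 or more that also occurs in the hairpin of another miRNA locus, on either strand, among 2235 loci of RefSeq and GENCODE M21. The rest of the genome was not searched.
Mir137: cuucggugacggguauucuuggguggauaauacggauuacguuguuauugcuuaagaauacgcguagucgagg
Mir9-2: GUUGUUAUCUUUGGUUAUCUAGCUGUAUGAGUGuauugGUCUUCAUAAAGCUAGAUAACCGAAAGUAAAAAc
Mir9-3: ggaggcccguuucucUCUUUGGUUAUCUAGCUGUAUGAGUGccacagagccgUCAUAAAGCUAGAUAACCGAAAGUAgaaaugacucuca
Mir128-1: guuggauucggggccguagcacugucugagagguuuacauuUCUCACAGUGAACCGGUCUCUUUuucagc
Mir128-2: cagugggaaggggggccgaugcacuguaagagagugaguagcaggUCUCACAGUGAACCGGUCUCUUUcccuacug
Mir129-2: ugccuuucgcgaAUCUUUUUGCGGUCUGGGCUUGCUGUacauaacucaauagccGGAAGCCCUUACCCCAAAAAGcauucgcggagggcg
Mir219a-1: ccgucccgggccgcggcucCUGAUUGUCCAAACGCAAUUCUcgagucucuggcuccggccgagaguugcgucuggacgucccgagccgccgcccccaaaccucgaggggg
Mir219a-2: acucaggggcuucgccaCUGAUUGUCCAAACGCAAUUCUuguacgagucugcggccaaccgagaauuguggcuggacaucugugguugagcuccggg
Around miR-9-5p, the run shared by Mir9-1 and Mir9-2 was 33 bases long, and the run that Mir9-3 shared with either was 26 bases. Around miR-9-3p these runs were 33 and 25 bases. The shared run was 26 bases for miR-129-5p (with Mir129-1), 23 for miR-128-3p and 22 for miR-219a-5p. The hairpin of Mir137, shown for contrast, had no shared run and so no capital.

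**Figure D1:**
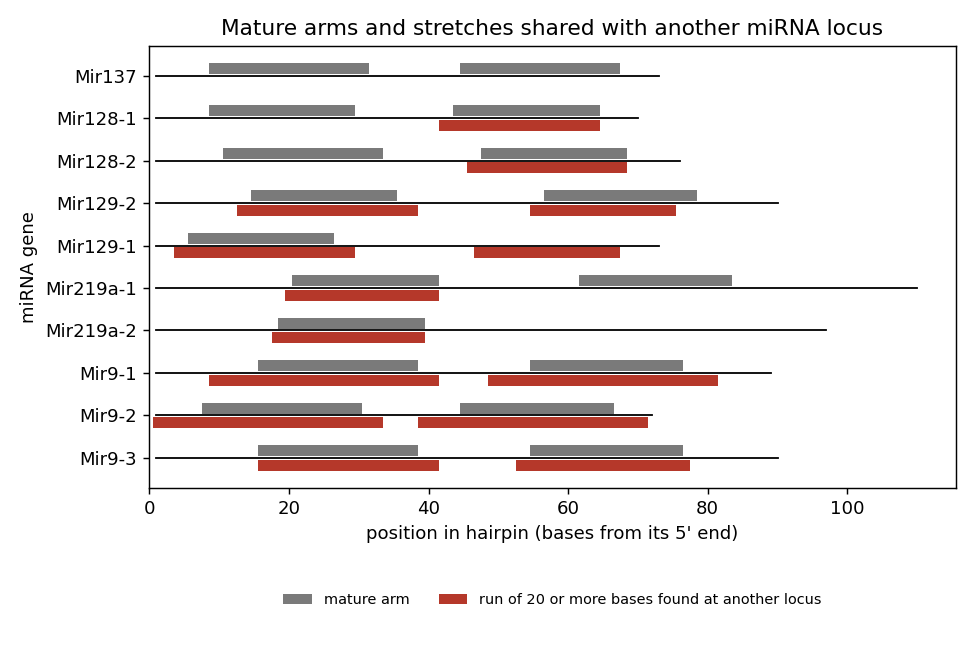
Each line is a hairpin drawn from its 5′ end (x axis, bases), with mature arms in grey above it and stretches of 20 or more bases found at another miRNA locus in red below it. The Mir137 hairpin carries no red stretch, the Mir128 and Mir219a hairpins carry 1 each, and both arms of the Mir9 hairpins lie within red stretches.

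The deposited tables list reads that map to several places as a class of their own, which held 26.9% of 12136246 reads in replicate 1 and 28.0% of 12282789 in replicate 2. The sum over gene rows and read classes was the same in each of the 3 count columns of a library, as it is when every read is counted in 1 place. Multi-mapping reads are therefore taken to be in no gene row. The count of a copied gene is then a lower bound on the reads of its mature miRNA. Sense counts totalled 5569959 and 6039005, and levels are counts per 1000000 of these totals (CPM). A level rests on few reads here, and 95% Poisson intervals cover counting error only.

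The 8 rows together held 1445 counts in replicate 1 and 1190 in replicate 2. That was 0.0259% of all sense counts (exact Clopper-Pearson 95% interval 0.0246 to 0.0273) and 0.0197% (0.0186 to 0.0209), or 0.0228% ± 0.00441 (SD, n = 2). Mir128-1 and Mir137 supplied most of it: Mir128-1 gave 38.3% of these counts in replicate 1 and 45.5% in replicate 2, and Mir137 gave 32.0% and 26.7%. A row holds the reads of both arms, and the tables do not say which arm was counted.

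Mir128-1 (ENSMUSG00000065520.1, chromosome 1, 128202361 to 128202430, plus strand) was the highest of these 8 rows. It lies in an intron of R3hdm1, a gene for a protein with an R3H RNA-binding domain. It held 553 counts in replicate 1 and 542 in replicate 2, or 99.3 CPM (91.2 to 107.9) and 89.7 CPM (82.4 to 97.6). The intervals overlap, and its mean of 94.5 ± 6.74 CPM (SD, n = 2) put it at rank 186 of all rows. Its copy Mir128-2 (ENSMUSG00000065441.1, chromosome 9, 112118636 to 112118711, minus strand) lies in an intron of Arpp21, a gene of the cyclic AMP pathway known from the striatum. Mir128-2 held 126 and 113 counts, or 22.6 CPM (18.8 to 26.9) and 18.7 CPM (15.4 to 22.5). Its intervals overlap as well, with a mean of 20.7 ± 2.76 CPM.

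The Mir128 pair, whose 3p arms are identical, differed about alike in both libraries. Mir128-1 exceeded Mir128-2 by 4.39-fold in replicate 1 (exact 95% interval 3.61 to 5.37) and by 4.80-fold in replicate 2 (3.91 to 5.93), a log2 ratio of 2.20 ± 0.0906 (SD, n = 2). Reads of miR-128-3p that lie within the shared run of 23 bases, in capitals above, match both loci, so the ratio describes the reads that were assigned to 1 row.

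Mir137 (ENSMUSG00000065569.1, chromosome 3, 118433857 to 118433929, plus strand) lies within an exon of Gm26871, a processed transcript. It held 463 counts in replicate 1 and 318 in replicate 2, or 83.1 CPM (75.7 to 91.1) and 52.7 CPM (47.0 to 58.8). Its intervals do not overlap, with replicate 1 the higher. The mean was 67.9 ± 21.5 CPM at rank 204. Mir128-1 lay above it in both libraries, by 1.19-fold (1.05 to 1.35) and 1.70-fold (1.48 to 1.96), a log2 ratio of 0.51 ± 0.363. Gm24155, another miRNA gene within 10000 bases, held 0 counts in both libraries. The 3 rows nearest to Mir137, by Euclidean distance on log2(CPM + 1) over the 2 libraries, were Mir7j (distance 0.17), Mir495 (0.21) and Mir135b (0.32).

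Mir129-2 (ENSMUSG00000065511.1, chromosome 2, 94241364 to 94241453, minus strand) lies in an intron of the long noncoding Mir670hg. It held 178 and 114 counts, or 32.0 CPM (27.4 to 37.0) in replicate 1 and 18.9 CPM (15.6 to 22.7) in replicate 2. Here too the intervals do not overlap and replicate 1 is the higher (mean 25.4 ± 9.25 CPM). Its copy Mir129-1, which is not among the 9 genes and lies on chromosome 6 (29022619 to 29022691) in an exon of Gm3294, held 37 and 27 counts, or 5.56 ± 1.54 CPM. Mir129-2 exceeded Mir129-1 by 4.81-fold (3.36 to 7.05) and 4.22-fold (2.76 to 6.68). The RefSeq table lists an arm of its own, miR-129-2-3p, at Mir129-2, and only the shared miR-129-5p at Mir129-1. Most of miR-129-2-3p nevertheless lies in a run that the Mir129-1 hairpin holds too, the second stretch of capitals in Mir129-2.

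Mir219a-1 (ENSMUSG00000065555.1, chromosome 17, 34024983 to 34025092, minus strand) overlaps the noncoding Gm26940. It held 84 counts in replicate 1 and 68 in replicate 2, or 15.1 CPM (12.0 to 18.7) and 11.3 CPM (8.74 to 14.3). Mir219a-2 (ENSMUSG00000065485.1, chromosome 2, 29845631 to 29845727, minus strand), outside any annotated host transcript on its strand, held 27 and 26 counts, or 4.85 CPM (3.19 to 7.05) and 4.31 CPM (2.81 to 6.31). The libraries overlap at both genes, whose means were 13.2 ± 2.70 and 4.58 ± 0.383 CPM. Mir219a-1 was 3.11-fold (2.00 to 4.99) and 2.62-fold (1.64 to 4.28) above Mir219a-2. The 5p arm is the same at both loci, and Mir219a-1 has a listed 3p arm of its own. Mir219b and Mir219c, annotated on the opposite strand of these hairpins, and Mir129b, opposite to Mir129-2, had no row. Over all 8 rows the opposite strand held 1 count in replicate 1 and 3 in replicate 2.

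The miR-9 rows were the lowest. Mir9-3 (ENSMUSG00000093238.1, chromosome 7, 79505264 to 79505353, plus strand), in an intron of its host Mir9-3hg, held 14 and 9 counts, or 2.51 CPM (1.37 to 4.22) and 1.49 CPM (0.681 to 2.83). Mir9-2 (ENSMUSG00000065424.1, chromosome 13, 83738814 to 83738885, plus strand), in an exon of the long noncoding C130071C03Rik, had no count in either library. The floor of 3 counts, the one-sided 95% limit of a count of 0, is 0.539 CPM for replicate 1 and 0.497 for replicate 2, and the upper ends of the two-sided intervals used for the other rows are 0.662 and 0.611 CPM. Of the 22-base windows in the hairpin, 24 of 51 recur at another locus for Mir9-2, 9 of 69 for Mir9-3, 2 of 49 for Mir128-1 and none of 52 for Mir137. These windows span the whole hairpin and not the arms alone. The arm miR-128-3p of Mir128-1 lies wholly within a shared run despite the few windows. Mir9-2, the hairpin with the largest part shared, was also the row without a count. The part of shared sequence in the order of the rows was not tested. Both arms of all miR-9 genes lie inside shared runs, so a read confined to such a run matches more than 1 locus, and mature miR-9 cannot be measured from these rows.

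**Figure D2:**
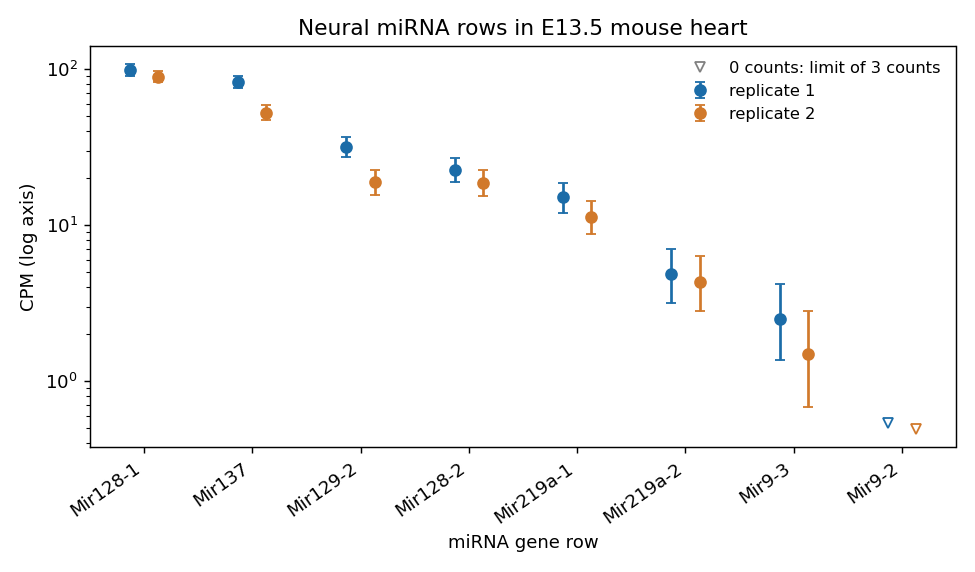
CPM on a log axis (y) of each neural row (x) in replicate 1 (blue) and replicate 2 (orange), with 95% Poisson intervals. Open triangles stand at the level that 3 counts would give, for rows with 0 counts. Rows run from 94.5 CPM for Mir128-1 to 0 for Mir9-2, and the intervals of the libraries are apart at Mir137 and Mir129-2.

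Ordered by mean level, the rows ran Mir128-1, Mir137, Mir129-2, Mir128-2, Mir219a-1, Mir219a-2, Mir9-3 and Mir9-2. Down to Mir9-3, neighbours kept this order in both libraries. Their mean log2 ratio exceeded its SD, with the exception of Mir129-2 and Mir128-2. Mir9-2, at 0, gives no ratio. Mir129-2 and Mir128-2 lay 1.41-fold apart in replicate 1 (1.12 to 1.79) and 1.01-fold in replicate 2 (0.771 to 1.32), a log2 ratio of 0.26 ± 0.343. Mir219a-2 over Mir9-3 was 1.93-fold in replicate 1, with an interval of 0.976 to 3.98 that includes equality.

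**Figure D3:**
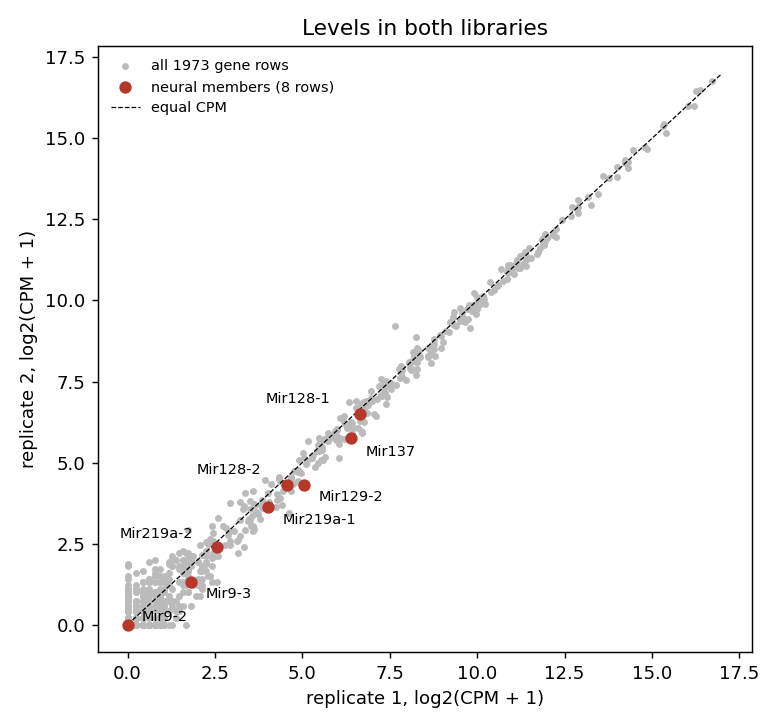
Log2(CPM + 1) of all gene rows in replicate 1 (x) and replicate 2 (y), with the 8 neural rows in red and a dashed line at equal CPM. Mir137 (83.1 and 52.7 CPM) and Mir129-2 (32.0 and 18.9 CPM) lie below the line, and Mir128-1 (99.3 and 89.7 CPM) lies close to it.

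The libraries were compared row by row with a two-sided exact binomial test on counts, over 288 rows at a mean of 10 CPM or more, with Benjamini-Hochberg adjustment. Calls needed an adjusted p below 0.05 together with a 1.5-fold or larger ratio after adding 1 CPM. What is compared is the reads of the libraries, not conditions, and the labels give both libraries the same donor entry. Of all rows tested, 5.90% were called (17 of 288), 4.86% with replicate 1 higher (14 rows) and the other 3 with replicate 2 higher. The binomial test takes counting error as the only error, and 177 of the 288 rows (61.5%) had an adjusted p below 0.05. A small p is therefore common here, and the ratio did most of the selecting. Of the neural rows, 5 could be tested and 2 were called, Mir137 and Mir129-2, both with replicate 1 higher. Mir137 was higher in replicate 1 by log2 0.65 (exact binomial test, adjusted p = 8.64e-10) and Mir129-2 by 0.73 (adjusted p = 2.62e-05). Mir219a-1 at 0.39 (adjusted p = 0.113, exact binomial test), Mir128-2 at 0.26 (0.213) and Mir128-1 at 0.14 (0.139) were not called.

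The 7 rows that held a count all had the higher CPM in replicate 1, also with TMM or DESeq2 scaling. Of all 692 rows with a count, 58.7% were higher in replicate 1 on total counts, 51.6% with TMM and 46.2% with DESeq2 scaling. The median log2 ratio was 0.39 over the 5 rows tested and 0.10 over all 288. TMM scaling lowered every ratio by 0.10 and DESeq2 scaling by 0.12, which gave 16 calls over all rows (5.56%), 8 in each direction, and ended the call of Mir137 (log2 0.55 and 0.53, below the ratio of 1.5). Both calls ended in an edgeR exact test that takes the spread between the libraries over all rows as the error (adjusted p = 0.611 for Mir137 and 0.531 for Mir129-2, unadjusted 0.0255 and 0.0203), which called 1 row of 288 (0.347%). Over all settings run, the adjusted p ran from 8.16e-10 to 0.611 for Mir137 and from 2.46e-05 to 0.531 for Mir129-2.

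Among the other miRNAs known from neurons, 20 of 23 rows held counts, and together they took 0.107% ± 0.00261 of the sense counts, 4.68 times the share of the neural rows above. The sums cover 23 rows against 8, so the multiple does not measure neural content. Both shares leave multi-mapping reads out of the rows and out of the total. Counts of copied genes are then lower bounds, but the shares are not. Mir34c led at 440.3 ± 5.66 CPM, and it is also known from multiciliated cells. Mir132, an activity-dependent miRNA of neurons, held 158.4 ± 0.891 CPM and its cluster partner Mir212 13.8 ± 3.84 CPM. Mir138-2 held 105.5 ± 18.7, Mir92b 92.1 ± 23.4, Mir135b 59.5 ± 9.61, Mir7-1 43.6 ± 3.59 and Mir138-1 42.1 ± 2.41 CPM. Mir218-2 and Mir218-1, in introns of Slit genes and known from motor neurons, held 31.6 ± 2.29 and 11.8 ± 0.667 CPM. From 16.9 down to 1.28 CPM followed Mir34b, Mir7b, Mir383, Mir153, Mir129-1, Mir488, Mir7-2, Mir384 and Mir135a-2, and Mir135a-1 lay below 1 CPM. The 3 Mir124a rows, of the most abundant miRNA of mature neurons, held 0 counts in both libraries, and miR-124 too is made from several loci.

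The other neural rows were split in direction between the libraries. Of the 20 with counts, 12 were higher in replicate 1 on total counts, 11 with TMM and 10 with DESeq2 scaling. Of 13 tested, 1 was called on total counts, Mir7b at log2 0.72 (exact binomial test, adjusted p = 0.000846). The call of Mir7b held with TMM and DESeq2 scaling (log2 0.62 and 0.61), as that of Mir129-2 did. The median log2 ratio of the 13 rows was 0.11, beside 0.10 over all rows. Of myelinating glia, Mir338 held 19.2 CPM in replicate 1 and 22.5 in replicate 2 (20.9 ± 2.34 CPM).

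Rows known from tissue beside the heart muscle were also measured, because a dissected heart can carry nerve and neighbouring tissue. As a check of the tissue label, the heart muscle rows Mir208b (42964 ± 1728 CPM), Mir208a (7263 ± 121 CPM) and Mir499 (1825 ± 281 CPM) together took 5.21% ± 0.189, or 228 times the share of the neural rows, and Mir208a alone was 74.0-fold and 80.0-fold above Mir128-1. Foregut and lung epithelium rows took 0.273% in replicate 1 and 0.237% in replicate 2, led by Mir429 (884 ± 156 CPM) and Mir200c (432 ± 93.2 CPM). Hox cluster rows, known from the trunk and its spinal cord, took 0.604% and 0.475%, led by Mir10a (4407 ± 631 CPM) and Mir10b (732 ± 230 CPM). The sensory rows Mir182, Mir183 and Mir96, known from hair cells and sensory ganglia, took 0.0936% and 0.0668%, with 350 ± 53.3, 341 ± 101 and 111 ± 35.7 CPM. All of these lists lay above the neural rows in both libraries, and each had at least 1 count in every row. These comparisons cover reads assigned to a row, and the counts of the neural rows are lower bounds because most of these genes are copied. Multi-mapping reads are absent from the total too, so the neural share is not a lower bound. With all reads as the total it was 0.0108%.

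Liver and endoderm rows took 0.0511% and 0.0869%, led by Mir122 (396 ± 275 CPM) and Mir215 (186 ± 26.2 CPM). Skeletal muscle rows, Mir206 (97.6 ± 25.5 CPM) and Mir133b (3.29 ± 0.675 CPM), took 0.00833% and 0.0118%, below the neural rows. Blood rows, with Mir451a (775 ± 117 CPM) and Mir223 (375 ± 92.6 CPM) in front, took 0.170% and 0.127%. Mir142 of that list had no row, and the row of Mir142b on the other strand held 8659 and 6816 counts on the strand of Mir142, or 1555 and 1129 CPM. With these, a choice made after seeing the data, the blood share would be 0.326% and 0.240%.

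**Figure D4:**
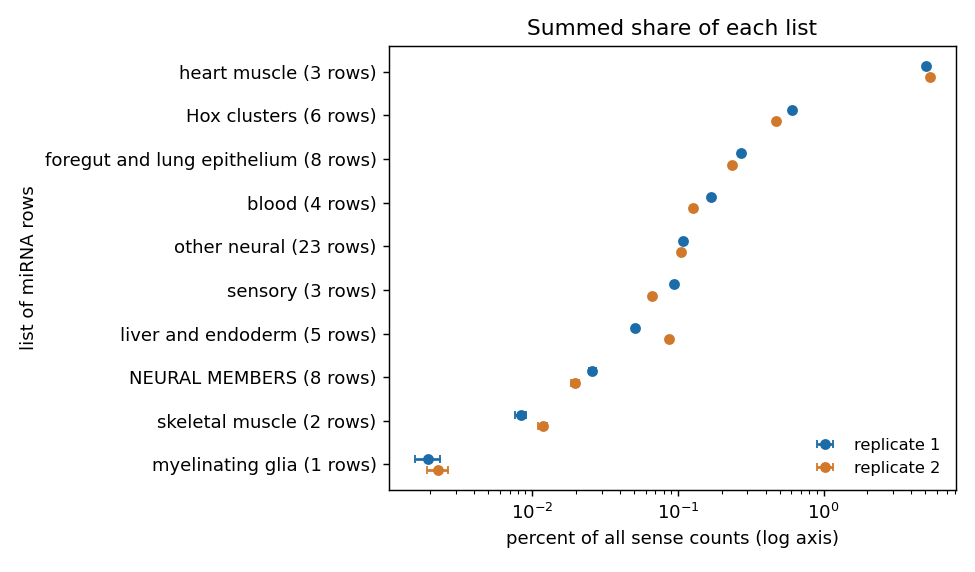
Summed share of all sense counts (x, percent, log axis) of each list (y) in both libraries, with exact 95% intervals. The neural rows, at 0.0259% and 0.0197%, lie below 7 of the 9 other lists and above skeletal muscle and myelinating glia. Multi-mapping reads are taken to be in no row and are left out of the total. Counts of copied genes, the neural rows among them, are lower bounds, but the shares are not.

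The directions of these lists are read beside all 288 rows tested, of which 65.6% were higher in replicate 1 on total counts, 49.3% with TMM and 46.2% with DESeq2 scaling. Only 4 of the 6 Hox rows were tested. Over all 692 rows with a count these shares were 58.7%, 51.6% and 46.2%. Of the sensory rows, 3 of 3 had more CPM in replicate 1, and Mir183 and Mir96 were called at log2 0.61 and 0.66. Of the Hox rows, 5 of 6 leaned the same way, and Mir10b and Mir615 were called at 0.65 and 0.79. Blood rows leaned this way at 4 of 4, with Mir486 called at 0.71. Epithelial rows did so at 7 of 8 (6 with TMM or DESeq2 scaling), with Mir205 called at 0.59 in this direction and Mir375 at -0.65 in the other. With either scaling, the calls of Mir183, Mir96, Mir10b and Mir205 ended, as that of Mir137 did, and those of Mir486, Mir615 and Mir375 held. Calls with replicate 2 higher rose from 3 to 8 over all rows with either scaling. List rows called only after scaling are not named here. In the edgeR exact test only Mir122 was called among these lists. The sums of heart muscle (log2 -0.07), skeletal muscle (-0.51) and liver and endoderm rows (-0.76, with Mir122 called at -1.55) went the other way. The summed level of Hox rows ran from 4750 CPM in replicate 2 to 6042 in replicate 1, and of sensory rows from 668 to 936 CPM. Blood rows ran from 1269 to 1701 CPM, epithelial rows from 2366 to 2731 CPM and the other neural rows from 1050 to 1087 CPM. The neural rows ran from 197 to 259 CPM. The part of neighbouring tissue or nerve in the level of Mir137 and Mir129-2 was not tested, and in bulk tissue fewer cells of a type and less RNA per cell cannot be told apart.

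**Figure D5:**
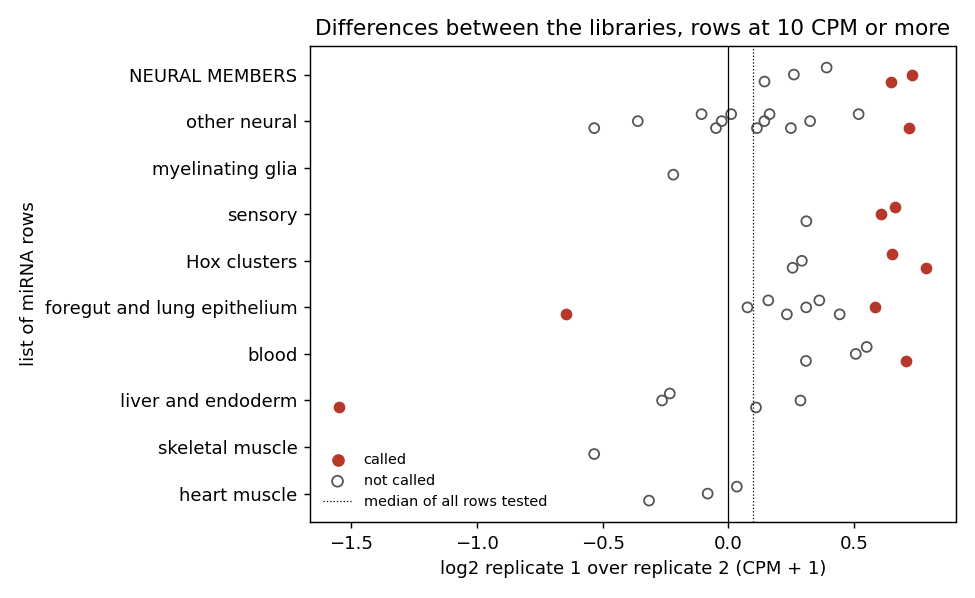
Log2 ratio of replicate 1 over replicate 2 (x, CPM + 1) for rows at a mean of 10 CPM or more in each list (y), filled where called, with a dotted line at the median of all rows tested (0.10). The called neural rows are Mir129-2 at 0.73 and Mir137 at 0.65. Called rows of the other lists with replicate 1 higher ran from 0.59 (Mir205) to 0.79 (Mir615). Mir375 (-0.65) and Mir122 (-1.55) were called in the other direction. A call needs a minimum ratio, so the filter sets the lower end of this range. Lying within it is not read as a likeness between lists.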

How the data were processed

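The authors deposited 1 table per library of whole-number read counts per miRNA gene, made on mm10 with GENCODE M4 per the labels and the text notes beside each table. For aligner, counter and trimming, nothing is given in the sources used here. Sense counts were used. Unmapped reads (21.2% and 17.2%), multi-mapping reads and reads in no feature on either strand (3.60% and 2.92%) stayed out of library sizes. So did reads on the opposite strand of gene rows, which were 4.96% and 5.18% of the counts on both strands of these rows. Identifiers were matched without their version to GENCODE M21 (1894 of 1973). The versions of Mir137, Mir9-2, Mir128-1 and Mir128-2 differ, so the interval counted may differ from the M21 coordinates printed, which are 1-based. Named were all 9 genes, list rows at 1 CPM or more among the other neural, glia and sensory lists, the 2 most abundant rows of each other list, miRNA genes within 10000 bases, and the 3 rows nearest to Mir137. Mir499, Mir375, Mir205, Mir486, Mir615, Mir142b and rows at 0 were named after their values were seen. The members and lists were chosen with earlier results of these data known.

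The binomial step was tested on simulated Poisson counts with known changes. These had no spread between libraries beyond counting error, so that check does not cover such spread in the data. The tools were R 4.3.3 with edgeR 4.0.16 and DESeq2 1.42.0, and Python 3.11.15 with scipy 1.17.1, pandas 2.3.3, numpy 2.4.6 and matplotlib 3.10.9. Alternatives were other scalings, minimums, pseudocounts, ratios and denominators, both strands, an edgeR exact test, and each library left out.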

Additional observations from a re-analysis of the deposited data

Results flagged for a closer look

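Mir9-1 has no row, but the row of Gm25641, annotated across it on the other strand (chromosome 3, 88215589 to 88215696), held counts on the strand of Mir9-1, which enter no level or share of the report. They were 6 in replicate 1, above the floor of 3 counts (the one-sided 95% limit of a count of 0), and 1 in replicate 2, with 0 sense counts in both. That is 1.08 and 0.166 CPM, with 95% Poisson intervals of 2.20 to 13.1 counts and 0.0253 to 5.57 counts, which overlap, and the interval of the 6 counts includes 3. Mir3093, within 10000 bases of Mir9-1, held 3 and 0 counts.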

How the results depend on the processing

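Calls over all rows rose from 17 of 288 to 39 of 432 at a minimum of 1 CPM and to 45 of 692 with no minimum, where more rows are tested, and fell to 2 at a ratio of 2 and to 1 in the edgeR exact test (common coefficient of variation 0.134, 17 rows at an unadjusted p under 0.05). Called neural rows went from 2 to 1 with TMM and with DESeq2 scaling, and to 0 at a ratio of 2 and in the edgeR exact test, where 2 had an unadjusted p under 0.05. The call of Mir129-2 held under both scalings, and neither Mir9-3 nor Mir219a-2 was called when tested at 1 CPM (binomial test, adjusted p = 0.423 and 0.765). The neural share was 0.0160% without Mir137 and 0.0108% of all reads, and ran from 0.0197% to 0.0259% with each library left out. It was 0.0229% with Mir9-1 counted from the row of Gm25641, a choice made after seeing the data. No direction of a neural row reversed. No paired analysis was possible because the design has 1 group. With 2 libraries, no test over samples was made.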
